A study of Mus musculus with 2 samples.

Results

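The 46 genes described here build and run DNA replication origins and forks in the mouse. They were taken by symbol from a list of 46 names, all of which matched 1 row among the 43346 Ensembl genes of the deposited tables. PolyA-selected RNA was sequenced as paired ends in 2 libraries of G1E-ER4 cells, an immortalised mouse erythroid line. Its parent line, G1E, has no GATA1, the main erythroid transcription factor, and G1E-ER4 carries a GATA1 joined to an estrogen receptor domain that estradiol activates. Both libraries were from cells given 10 nM 17beta-estradiol for 14 hours, so they form 1 group of 2 numbered biological replicates, and no sample without estradiol was analysed here. As the labels assign 1 biosample record to both, differences between them may be technical. The p-values between them are set against counting error only and measure no spread between cultures. The values are therefore levels at 14 hours and differences between 2 libraries, not responses to the hormone. In bulk RNA such as this, fewer cells in S phase and less RNA per cell cannot be told apart.

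Replicate 2 held 60097379 expected counts and was 1.57 times as deep as replicate 1, with 38395479. A count of 0 allows up to 3 counts, equal to 0.0781 CPM (counts scaled to library size) in replicate 1 and 0.0499 in replicate 2, for counting error only. Of 13 erythroid markers 12 reached 1 TPM in both libraries, with summed TPM of 24400 and 36800. Most of these sums lay on Hba-a1, at 7118 and 21029 TPM, and Hba-a2, at 9928 and 9540. The 12 include Gata1, at 1132 and 2656 TPM, whose reads cannot be told apart here from those of the introduced GATA1. TPM is a gene's number of transcripts, scaled per length to the same total in each library. The 6 lymphoid markers summed to 0.32 and 1.56 TPM and the 5 fibroblast and endothelial markers to 0.18 and 0.03. Of 5 megakaryocyte markers 3 reached 1 TPM in both libraries, with sums of 74.0 and 77.2 TPM, and of 4 mast cell markers 1 did, with sums of 2.67 and 1.67. Of 9 granulocyte and macrophage markers 2 reached 1 TPM in both libraries, with sums of 24.1 and 21.2 TPM, and 4 were at 0.

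Replication is started at origins that are bound by the origin recognition complex, ORC. In G1, ORC, CDC6 and CDT1 load the ring-shaped MCM2-7 helicase in an inactive form, a step called licensing, which geminin (Gmnn) blocks later in the cycle. The kinase CDC7 with DBF4, then CDC45, the GINS complex and MCM10, turn the ring into a moving helicase. Polymerase alpha-primase lays primers, polymerases epsilon and delta extend the strands on the sliding clamp PCNA, and RPA covers single-stranded DNA. Erythroid precursors divide several times while they mature, and many replication genes are known targets of the E2F family of transcription factors.

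Because E2F binding is the textbook control of these genes, their promoters were searched for E2F words. The RefSeq promoter table for GRCm38.p6, which covers 250 bases before to 50 bases after each start, held 37 of the 46 genes. The words searched on both strands were TTTCCCGC, TTTCGCGC, TTTGCCGC and TTTGGCGC, some of which overlap each other when read on opposite strands. Of the 37 genes 15 (40.5%) had a word, against 2.6% of all 27025 genes in the table and 5.58% of the 6486 expressed protein-coding genes in it. The 15 were Orc1, Orc3, Cdc6, Cdt1, Mcm3, Mcm5, Mcm6, Mcm7, Mcm8, Gins3, Pola1, Pold1, Pole2, Rfc3 and Lig1. Mcm2, the highest of the 46 genes, had none in its window. Counting only the bases before the start, 9 genes (24.3%) had a word, against 2.16% of all genes and 4.63% of expressed genes. The 6 of these 9 with the highest level are shown to let the words be compared in context. Each line is 30 bases read 5′ to 3′ on the strand of the gene, with the letters of the word, or of overlapping words, in capitals.
Mcm5: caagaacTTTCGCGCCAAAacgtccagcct
Mcm6: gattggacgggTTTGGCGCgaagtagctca
Mcm7: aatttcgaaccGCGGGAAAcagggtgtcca
Orc1: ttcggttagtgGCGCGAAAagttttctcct
Rfc3: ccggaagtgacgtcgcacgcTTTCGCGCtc
Cdc6: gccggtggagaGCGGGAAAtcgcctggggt

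On GRCm38.p6 these windows were chr8:75109349-75109378 on the plus strand for Mcm5 and chr1:128359734-128359763 on the minus strand for Mcm6. They were chr5:138172030-138172059 on the minus strand for Mcm7 and chr4:108579416-108579445 on the plus strand for Orc1. For Rfc3 the window was chr5:151651209-151651238 on the minus strand, and for Cdc6 chr11:98908002-98908031 on the plus strand. The word nearest to the start began 149 bases before it in Mcm5, 47 in Mcm6, 165 in Mcm7, 27 in Orc1, 10 in Rfc3 and 138 in Cdc6. Mcm5 had 2 such words before its start, which share letters in the line above, and Mcm6 had 3, of which 1 is shown. The CCAAT word was in 23 of the 37 promoters (62.2%), against 41.1% of all genes and 44.3% of expressed genes. The word TTTGAA, the core of the cell cycle homology region, was in 8 (21.6%), against 20.2% and 13.6%. The GATA words AGATAA, as well as AGATAG, besides TGATAA, and lastly TGATAG, were found in 8 (21.6%), against 33.0% and 20.1%, so their share was close to that of expressed genes. A match is a string of letters in a window and was not tested for binding.

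Almost all of the 46 genes were expressed. Both libraries had 1 TPM or more for 45 of them (97.8%), against 37.6% of the 21461 nuclear protein-coding genes. The exception was Pola1, with 0.95 TPM in replicate 1 and 3.02 in replicate 2. At 50 TPM or more in both libraries stood 12 (26.1%), against 9.05% of the nuclear protein-coding genes. The median level of the 46 genes was 24.1 TPM in replicate 1 and 35.1 in replicate 2. The same medians over the 8062 expressed nuclear protein-coding genes were 19.3 and 19.6. The levels spanned a wide range, from Mcm2 at 408 ± 95.3 TPM (SD, n = 2, as for all values given with ±) down to Tipin at 1.39 ± 0.438. Mcm2 ranked at percentile 95.9 of the expressed genes and Tipin at percentile 1.46. Together the 46 genes took 0.467% of all expected counts in replicate 1 and 0.515% in replicate 2. Their order was similar in both libraries, with a Spearman rho of 0.909 across the 46 genes, which share libraries and are not independent, against 0.924 over the expressed genes.

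**Figure D1:**
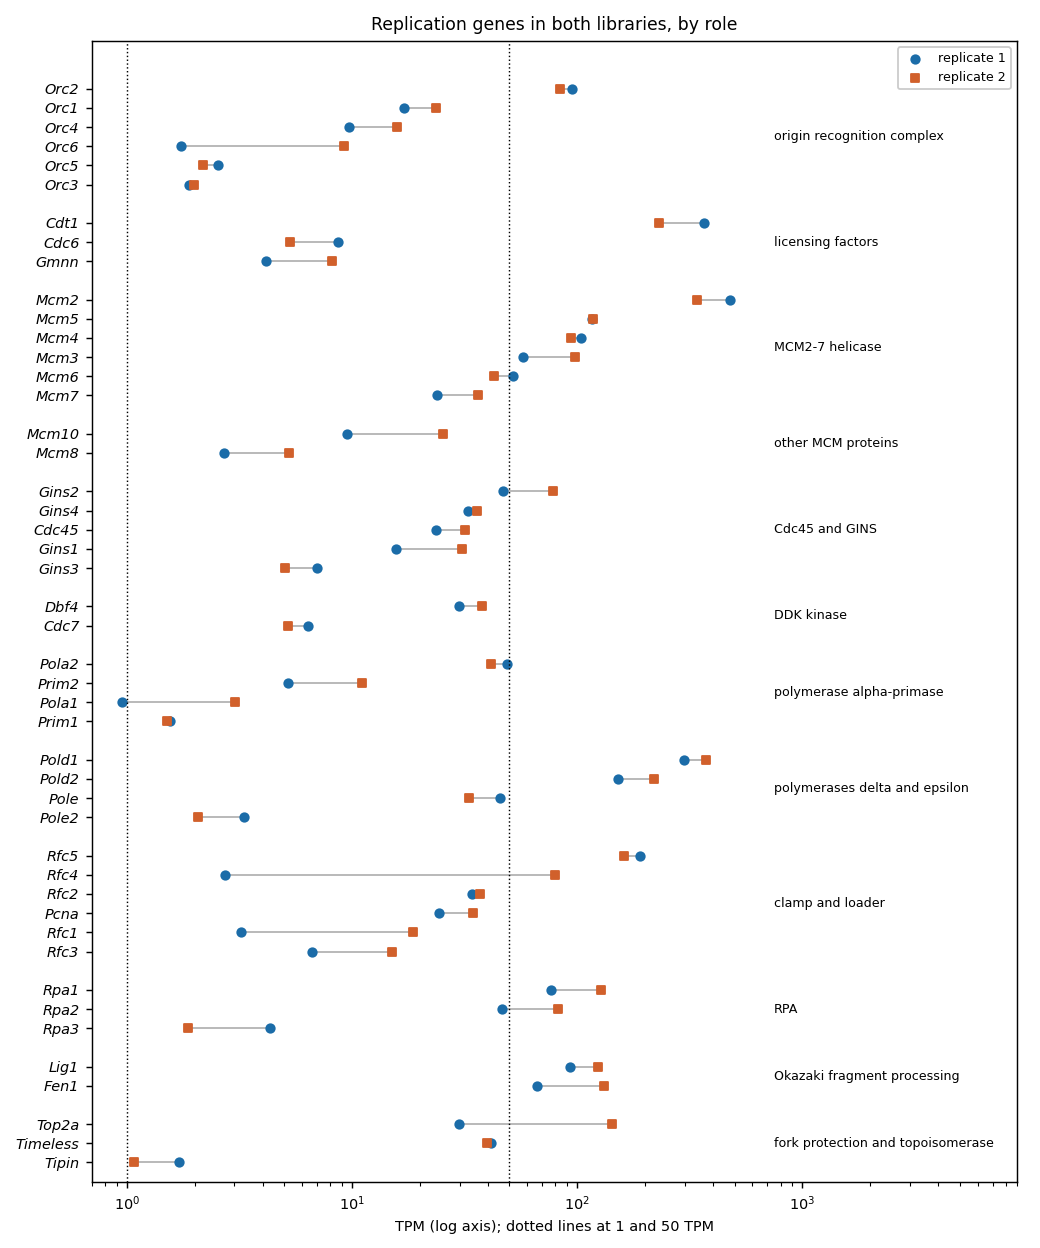
TPM of each of the 46 genes on a log axis, grouped by role, with a circle for replicate 1, a square for replicate 2 and dotted lines at 1 and 50 TPM. Mcm2, Cdt1 and Pold1 lie farthest to the right, and the long bars of Rfc4, Orc6, Rfc1 and Top2a mark genes whose libraries lie far apart.

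Origin recognition came from messages of very unequal level. Orc2 stood far above the other 5 ORC genes, at 95.04 TPM in replicate 1 and 84.0 in replicate 2. Orc1, an ATP-binding subunit, stood at 17.0 and 23.5 TPM. Orc4 followed at 9.72 and 15.9 TPM. The lowest were Orc3 at 1.89 and 1.99 TPM and Orc5 at 2.55 and 2.17, and neither was called different between the libraries. Orc6, the smallest subunit, moved from 1.74 TPM in replicate 1, the lowest of the complex, to 9.16 in replicate 2. The level of Orc2 rests on a short model: 77.3% and 73.9% of its TPM lay on Orc2-205, a protein-coding transcript of 370 bases. Orc4 was similar, with 85.1% and 62.4% on Orc4-209 of 383 bases. Per kilobase of the longest coding transcript, scaled like TPM, Orc2 was still the highest of the complex at 44.1 and 40.4, while Orc4 had 1.65 and 2.58. Both transcripts were chosen for mention after their values were seen.

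The licensing factor Cdt1 was among the highest of all 46 genes and its inhibitor Gmnn was low. Cdt1 (chromosome 8, 122568015 to 122573554 on GRCm38, as for all gene coordinates) had 366 TPM in replicate 1 and 229.7 in replicate 2. Gmnn (chromosome 13, 24751845 to 24761923) had 4.15 and 8.18 TPM. The 2 libraries of Cdt1 lay above both of Gmnn by a wide margin. Cdc6, the ATPase that joins ORC in loading the helicase, stood at 8.70 and 5.29 TPM.

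All 6 subunits of the MCM2-7 ring were well expressed, and 4 of them reached 50 TPM in both libraries. Mcm2 (chromosome 6, 88883474 to 88898780) reached 475 and 340.1 TPM. Mcm5 lay at 116 and 118 TPM and Mcm4 at 103 and 93.4. Mcm3 had 57.4 TPM in replicate 1 and 97.7 in replicate 2. Mcm6 (52.1 and 42.6 TPM) and Mcm7 (23.8 and 36.2 TPM) were the lowest, so subunits that join in equal numbers in the ring had messages that differed 13.6-fold in the mean. The related Mcm8, which acts in recombination and not in the ring, stood at 2.71 and 5.26 TPM. Mcm10, which helps to start the helicase, had 9.51 TPM in replicate 1 and 25.4 in replicate 2.

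The genes that turn the ring into a helicase lay in the middle of the range. Cdc45 had 23.5 and 31.9 TPM. Of the GINS genes, Gins2 was highest at 47.0 and 78.0 TPM and Gins4 stood at 32.6 and 35.9. Gins1 had 15.6 TPM in replicate 1 and 30.7 in replicate 2. Gins3 was lowest at 6.98 and 5.04 TPM. Per kilobase of the longest coding transcript Gins4 (50.9 and 54.9) exceeded Gins2 (33.3 and 41.6), so the top place among the 4 depends on the scale. The activator Dbf4 stood at 29.7 and 37.8 TPM, above its kinase partner Cdc7 at 6.35 and 5.18.

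Among the polymerases the catalytic subunit of polymerase delta was highest, and the primase catalytic subunit Prim1 was lowest in mean TPM. Pold1 (chromosome 7, 44532746 to 44548849) had 297 TPM in replicate 1 and 374 in replicate 2. Its partner Pold2 reached 151 and 219 TPM. Pole, the catalytic subunit of polymerase epsilon, stood at 45.4 and 33.1 TPM, and Pole2 at 3.31 and 2.07. Of polymerase alpha-primase, Pola2, the regulatory B subunit, stood at 49.0 and 41.6 TPM, above the other 3 genes in both libraries. The catalytic subunit Pola1 (chromosome X, 93304767 to 93632155) had 0.95 TPM in replicate 1, from 150 expected counts, and 3.02 in replicate 2, from 852. Prim1 stood at 1.56 and 1.51 TPM, so it was above Pola1 in replicate 1 and below it in replicate 2. The large primase subunit Prim2 stood at 5.18 and 11.1.

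The clamp and its loader showed the least stable order. Pcna (chromosome 2, 132249162 to 132253314) stood at 24.3 and 34.4 TPM, below most ring subunits. The loader subunit Rfc5 was highest, at 191 and 162 TPM, with 95.7% and 72.4% of this on Rfc5-202, a protein-coding transcript of 772 bases. Rfc2 lay at 34.0 and 36.9 TPM. Rfc3 had 6.62 and 15.0 TPM. Rfc4 (chromosome 16, 23113943 to 23127737) moved from 2.72 TPM, from 68 expected counts, to 79.9 TPM, from 1469. The large subunit Rfc1 (chromosome 5, 65261850 to 65335670) moved from 3.20 to 18.7 TPM, while its expected counts went from 302 to 752.

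Of the single-strand binding complex RPA, the larger subunits were high by the TPM of the whole gene and the smallest was low. Rpa1 stood at 76.6 and 127 TPM and Rpa2 at 46.2 and 82.2. Rpa3 stood at 4.33 TPM from 69 expected counts in replicate 1 and at 1.86 TPM from 52 in replicate 2. Both genes that finish Okazaki fragments were high: Fen1, the flap nuclease, stood at 66.5 and 132 TPM, and Lig1, the ligase, at 92.6 and 123. At the fork, Timeless stood at 41.2 and 39.7 TPM, while its binding partner Tipin had 1.70 and 1.08 TPM from 55 and 62 expected counts. Top2a, the topoisomerase that separates replicated DNA, had 29.8 TPM in replicate 1 and 143 in replicate 2.

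Pairs of genes that act in 1 step were compared within each library, as log2 ratios of TPM + 0.1. The rule for a ratio beyond the spread asked for 1 sign in both libraries and for a mean of more than 2 times the range between them. It was met by 6 of 9 pairs. Cdt1 exceeded Gmnn by 6.43 in replicate 1 and 4.79 in replicate 2, a mean log2 ratio of 5.61 ± 1.16. Timeless exceeded Tipin by 4.52 and 5.08, a mean of 4.80 ± 0.39. Mcm2 exceeded Mcm10 by 5.63 and 3.74, a mean of 4.68 ± 1.34. These 3 were the largest ratios of the 9 pairs in the mean. Pold1 over Pole gave 2.71 and 3.49, a mean of 3.10 ± 0.56, and Orc1 over Orc2 gave -2.48 and -1.83, a mean of -2.16 ± 0.46. The kinase Cdc7 against its activator Dbf4 gave -2.21 and -2.85, a mean of -2.53 ± 0.45. In the other 3 pairs the libraries did not settle an order by this rule. Pola1 over Prim1 gave -0.66 and 0.95, and Fen1 over Lig1 gave -0.48 and 0.10, so both pairs changed direction between the libraries. Pcna exceeded Rfc1 by 2.89 and 0.88, a mean of 1.88 ± 1.42, too wide a spread to pass. By expected counts per kilobase of the longest coding transcript, which does not follow the isoforms chosen, the Pcna over Rfc1 log2 ratio was 3.34 and passed. With counts not divided by length it was 1.73 and passed as well. On the per-kilobase scale Pold1 over Pole came to a log2 ratio of 4.92 and Mcm2 over Mcm10 to 5.57, with the same directions. In Pole 77.4% and 72.5% of TPM lay on Pole-203, a protein-coding transcript of 747 bases.

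**Figure D2:**
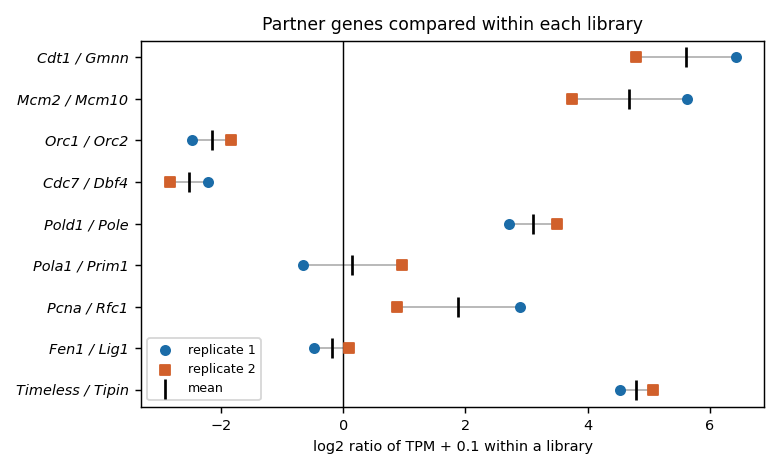
Log2 ratio of TPM + 0.1 between 2 genes of 1 step, with a circle for replicate 1, a square for replicate 2 and a bar for the mean. Cdt1 over Gmnn, Timeless over Tipin and Mcm2 over Mcm10 lie farthest from 0, and the points of Pola1 over Prim1 and of Fen1 over Lig1 fall on both sides of 0.

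No complex had equal messages. The highest subunit exceeded the lowest in mean TPM by 13.6-fold in the MCM2-7 ring, 46.2-fold in ORC, 10.4-fold in GINS and 16.3-fold in RFC. The span was 29.5-fold in polymerase alpha-primase and 32.9-fold in RPA. The order of subunits was the same in both libraries for GINS and for RPA, with a rank correlation of 1.0 over 4 and 3 genes. It was nearly the same for MCM2-7, at 0.943 over 6 genes, with Mcm3 and Mcm4 changing places. RFC had the lowest rank correlation, 0.3 over 5 genes, since Rfc4 was last of the 5 in replicate 1 and second in replicate 2. The RFC span was 70.1-fold in replicate 1 and 10.8-fold in replicate 2. That of polymerase alpha-primase was 51.6-fold in replicate 1 and 27.5-fold in replicate 2. The RPA span was 17.7-fold in replicate 1 and 68.3-fold in replicate 2, and the GINS span 6.74-fold and 15.5-fold. Per kilobase of the longest coding transcript the span was 19.9-fold in ORC, 5.40-fold in GINS and 12.0-fold in RPA, so more than 1.5 times narrower than by TPM in each. On that scale it was wider in MCM2-7, at 19.5-fold. It changed little in RFC, at 16.75-fold, and in polymerase alpha-primase, at 28.2-fold.

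Each gene's scaled expected counts were set against each other between the libraries in a two-sided exact binomial test. It covers counting error only and compares these libraries, not conditions. The call needed a fold of at least 1.5 and, over the 11230 genes tested, an adjusted p (Benjamini-Hochberg) under 0.05. Of the 46 genes 18 were called (39.1%), close to the 41.4% of all tested genes. Their directions were uneven: 17 (37.0%) were higher in replicate 2, against 24.3% of all tested genes, and 1 (2.17%) was higher in replicate 1, against 17.1%. In scaled counts, replicate 2 over replicate 1, the median log2 ratio was 0.317 over the 46 genes and 0.046 over all tested genes. By TPM the median was 0.379 over the 46 genes, beside -0.104 over the expressed protein-coding genes. Those higher in replicate 2 were Orc1, Orc4, Orc6, Gmnn, Mcm3, Mcm7, Mcm10, Gins1, Pola1, Prim2, Pcna, Rfc1, Rfc4, Rpa1, Rpa2, Fen1 and Top2a. None of the 4 genes for polymerases delta and epsilon, and neither Cdc7 nor Dbf4, was called. Summed erythroid marker TPM was also higher in replicate 2, as given above, and its part in the result was not tested.

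The largest called difference was that of Rfc4, whose scaled counts were 13.0 times higher in replicate 2 (exact 95% interval 10.3 to 17.0, adjusted p = 6.42e-211 by the exact binomial test). Orc6 (chromosome 8, 85299632 to 85308278), with 80 and 746 expected counts, was 5.62 times higher (4.48 to 7.21, exact binomial adjusted p = 2.41e-74). Pola1 was 3.43 times higher (2.89 to 4.12, exact binomial adjusted p = 3.05e-56). Each of these genes was low in replicate 1, with 150 expected counts or fewer. Mcm10 (chromosome 2, 4989714 to 5012791), with 715 and 3550 expected counts, was 3.01 times higher (2.78 to 3.27). Prim2 (chromosome 1, 33453810 to 33669795), with 289 and 1099, was 2.30 times higher (2.02 to 2.63). In the other direction Rpa3 (chromosome 6, 8255936 to 8259173) had a ratio of 0.458 (0.313 to 0.664, exact binomial adjusted p = 3.53e-05), from few counts in both libraries. By contrast the ring subunit Mcm5 had a ratio of 1.10 (1.07 to 1.12) and Orc2 one of 1.01 (0.959 to 1.06).

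**Figure D3:**
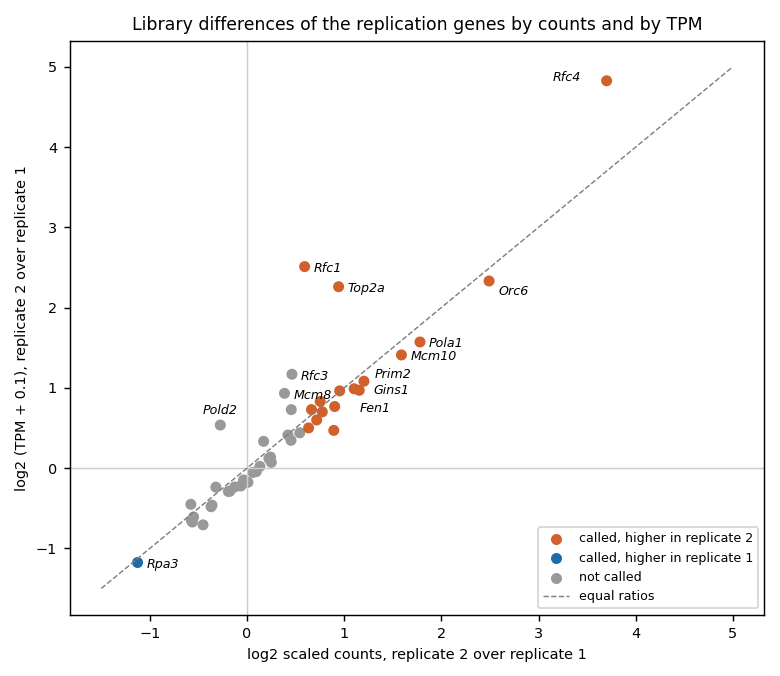
Log2 ratio of replicate 2 to replicate 1 for each of the 46 genes, by scaled counts on the x axis and by TPM + 0.1 on the y axis, with the dashed line marking equal ratios. Most of the 17 genes higher in replicate 2 lie near the line, while Rfc4, Rfc1 and Top2a lie above it because their TPM ratio exceeded their count ratio.

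Counts and TPM told different sizes for a few genes. In 6 of the 46 genes the effective length, by which counts are divided to give TPM, differed at least 1.5-fold between the libraries. The same was seen in 8.04% of expressed protein-coding genes. For Rfc1 it went from 3104 to 739 bases, so scaled counts were 1.51 times higher in replicate 2 (1.32 to 1.73) but TPM 5.84 times higher. The call of Rfc1 was lost with the size factors of DESeq2. For Top2a it went from 3345 to 1236 bases, with 1.92 times the scaled counts (1.84 to 2.00) and 4.80 times the TPM. For Pold2 it went from 1071 to 563 bases, so scaled counts were lower in replicate 2, at 0.826 (0.796 to 0.857), while TPM was 1.45 times higher. Rfc4, Rfc3 and Mcm8 were the remaining 3.

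These lengths follow from the transcripts on which reads were placed. Transcripts annotated as protein coding held 50% or more of a gene's TPM in both libraries for 32 of the 46 genes (69.6%), against 75.2% of the expressed protein-coding genes. By share of expected counts in place of TPM it was 38 of 46. The most abundant transcript changed between the libraries in 10 genes. In Rfc4 the transcript Rfc4-202, of 416 bases and annotated as a target of nonsense-mediated decay, went from 32.6% to 90.4% of TPM. The coding Rfc4-201 still went from 1.56 to 7.48 TPM. In Top2a the processed transcript Top2a-202, of 632 bases, went from 0% to 82.8% of the gene's TPM. The coding Top2a-201 went from 18.02 to 23.5 TPM, so most of the TPM difference of Top2a lay on the short model. In Rfc3 the retained-intron transcript Rfc3-204, of 605 bases, went from 0% to 65.6%, and coding Rfc3-201 from 3.99 to 0.61 TPM. In Pold2 the processed transcript Pold2-202, of 342 bases, went from 16.2% to 59.4%. In Mcm10 the retained-intron Mcm10-209, of 2356 bases, went from 9.56% to 66.1%, while coding Mcm10-201 went from 5.33 to 8.28 TPM.

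Other genes leaned on a noncoding model in both libraries. In Lig1 the processed transcript Lig1-207, of 2968 bases, held 88.1% and 81.1% of TPM, close in length to the longest coding model of 3174 bases. In Rpa1 the retained-intron Rpa1-205, of 716 bases, held 63.0% and 66.7%, and in Rpa2 the retained-intron Rpa2-202, of 823 bases, held 60.3% and 82.2%. Coding Rpa1-201 had 21.56 TPM in replicate 1 and 35.95 in replicate 2. Coding Rpa2-201 had 11.2 and 9.43 TPM, so the higher Rpa2 TPM of replicate 2 did not lie on it. In Orc1 the processed transcript Orc1-203, of 679 bases, held 81.9% and 73.3%. The TPM of these 4 genes therefore counts RNA that is not annotated as a message for the full protein. Gins1 moved between the processed Gins1-203 (52.2% in replicate 1) and the coding Gins1-201 (55.6% in replicate 2). Gins2 moved between the processed Gins2-202 (55.5% in replicate 1) and the retained-intron Gins2-204 (49.7% in replicate 2). Timeless was split, with coding Timeless-205 leading at 33.1% in replicate 1 and the processed Timeless-202 at 37.4% in replicate 2. Cdc7 changed between 2 coding transcripts, Cdc7-203 (46.2% in replicate 1) and Cdc7-201 (50.4% in replicate 2). For Rfc1 the leading transcripts of 3588 and 685 bases had no type in the annotation used, so it has no coding share here. By contrast Mcm2, Mcm4, Mcm5 and Cdt1 had 1 deposited transcript each, coding in all 4.

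**Figure D4:**
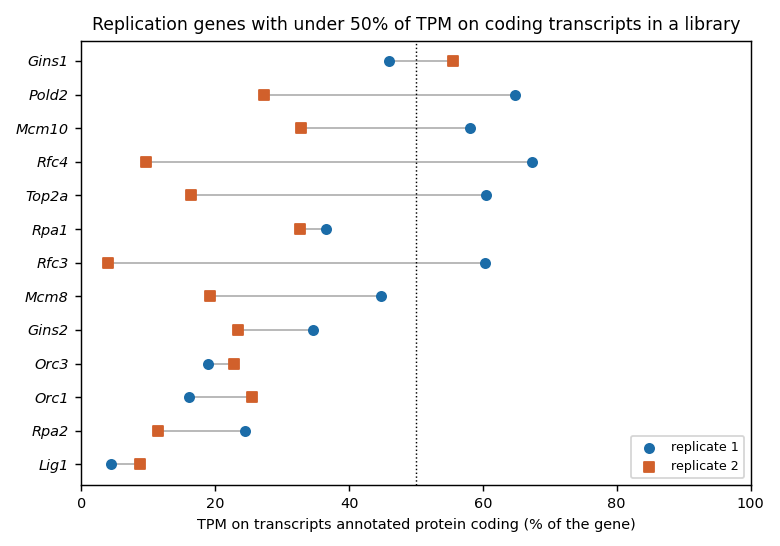
Share of each gene's TPM on transcripts annotated protein coding, for the genes under 50% in replicate 1 or replicate 2 (circle and square), without Rfc1, with a dotted line at 50%. Rfc4, Rfc3, Top2a, Pold2 and Mcm10 cross the line to a lower share in replicate 2 and Gins1 to a higher one, while Lig1, Rpa2 and Orc1 stay far below it in both.

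Few reads were shared with copies of these genes. The deposited posterior SD of the count was above 0 for Pcna, at 2.39 and 2.42 fragments, and for Orc5, at 0.59 in replicate 2, where the pseudogene Gm15421 overlaps it on the same strand. Opposite-strand overlap was more common. In 14 of the 46 genes an exon overlapped an exon of a gene on the other strand, and in 8 of these that gene had at least 0.1 times their counts. Gins2 overlaps Gse1, which had 47879 and 54594 expected counts. Mcm7 overlaps Cops6, with 3884 and 7347. Rfc4 overlaps Eif4a2, which had 94 and 132 expected counts, and Orc6 overlaps Vps35, with 244 and 612. Whether strand was used in the counting was not stated in any source used here. The deposited posterior SD was 0 in both libraries for all 14 genes, so it gave no sign of reads shared with these partners. Whether reads of a partner were counted for these genes was not tested. Without the 14 genes, 31 of 32 were expressed and 12 of 32 were called between the libraries, beside 41.4% of all tested genes.

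The level of a gene went with the GC content of its most abundant transcript. Across the 45 genes with a value the Spearman rho of mean TPM with GC content was 0.799, and it was 0.387 across 7978 expressed protein-coding genes. It was 0.789 in replicate 1 and 0.773 in replicate 2. These points share libraries and gene families and are not independent, so the rho is a description. The 22 genes of lowest GC, 40.4% to 49.4%, had a median of 6.58 TPM, and 2 of them reached 50 TPM in the mean. The 23 genes of highest GC, 49.7% to 60.7%, had a median of 64.2 TPM, and 13 of them reached 50. Some partners of unequal level lay far apart in GC too: Cdt1 had 58.8% and Gmnn 45.9%, Timeless 55.5% and Tipin 40.8%, Rpa1 56.0% and Rpa3 40.4%. In polymerase alpha-primase Pola2 had 54.7%, Prim1 44.3% and Pola1 41.5%. Others did not: Mcm2 had 55.5% and Mcm10 50.7%, and Cdc7 had 45.2% and Dbf4 44.4%. Mcm4, at 45.5% GC and 98.4 ± 7.13 TPM, and Top2a, at 44.3%, were the exceptions that were high at low GC. The ratio between the libraries did not follow GC in this way, with a rho of -0.053 over the 45 genes and -0.089 over the expressed genes. The part of GC content in the level differences was not tested.

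**Figure D5:**
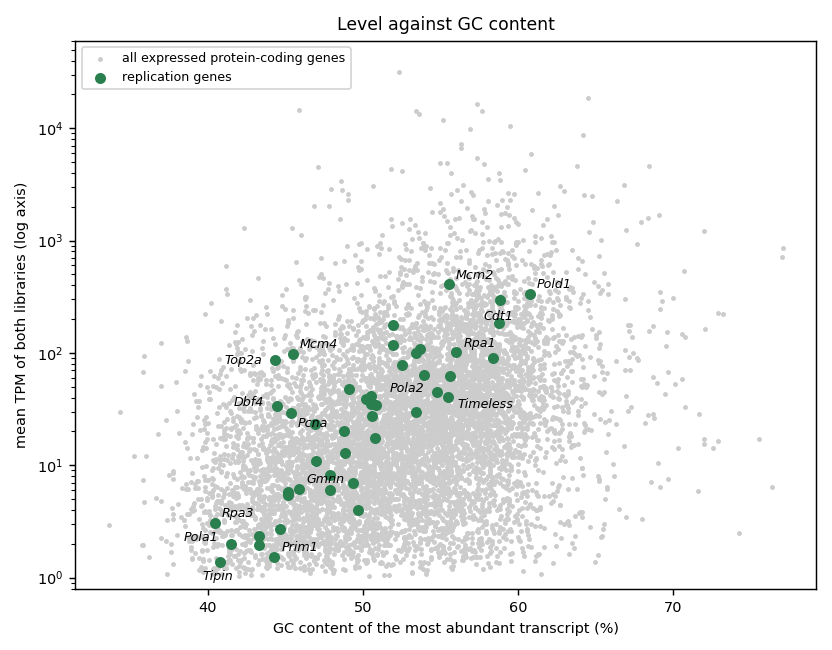
Mean TPM of both libraries on a log axis against the GC content of the most abundant transcript, for 45 replication genes (green) and all expressed protein-coding genes (grey). Every green point under 10 TPM lies below 50% GC, and 13 of the 15 over 50 TPM lie above 50%, with Mcm4 and Top2a as the exceptions.

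A second list of 43 genes of the same process, covering firing factors, fork proteins, accessory subunits, histone deposition, maintenance methylation and nucleotide supply, was set beside these. Both libraries had 1 TPM or more for 41 of its genes (95.3%), and 50 TPM or more for 14 (32.6%). By TPM the highest was Rnaseh2a, a subunit of the nuclease that removes RNA from DNA, at 1934 and 1156 TPM, with 3.31% and 8.83% of it on coding transcripts. Its partner Rnaseh2c reached 583 and 608 TPM. Per kilobase of the longest coding transcript, scaled like TPM, Rnaseh2a had 250.4 and 159.8 and Rnaseh2c 762 and 565, so their order depends on the scale. Ccne1, the cyclin that drives entry into S phase, had 644 TPM in replicate 1 and 214 in replicate 2. Of this 10.7% and 25.4% lay on coding transcripts, and per kilobase of the longest coding transcript Ccne1 had 343 and 151. Rrm2, the ribonucleotide reductase subunit, moved the other way, from 238 to 582 TPM. Among the lowest were Mcm9 (1.05 and 0.59 TPM), which fell under 1 TPM in replicate 2, and Fancm (4.63 and 2.86). Of the 43 genes 15 were called higher in replicate 2 (34.9%), against 24.3% of all tested genes, and 6 higher in replicate 1 (14.0%), near the 17.1% of all tested genes. Ccne1 was called higher in replicate 1, with a ratio of 0.484, and Rrm2 higher in replicate 2, with a ratio of 2.67.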

How the data were processed

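Gene and transcript tables of 2 libraries were used, which the authors deposited on mm10, with GENCODE M4 as annotation per the deposited notes. The name of the aligner was not given in the sources used here, nor was that of the quantifier. Each table holds, per the file headers, expected counts (estimated fragment counts), TPM, FPKM, the isoform percent of each transcript and the posterior SD of the count, a signal unit here. The deposited expected counts need not be whole. The deposited TPM and FPKM divide them by an effective length that follows the transcripts chosen, so reads placed on a short transcript raise them. In the deposited tables, isoform percent gives the part of a gene's TPM on each transcript. The deposited posterior SD is used here as a signal of shared reads.

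Names, types and transcript sequences were taken by identifier from GENCODE M21 (GRCm38): 42462 of 43346 Ensembl genes had a symbol. Rows with no gene name held 2 and 0 counts and were left out. With 1 group, no comparison of conditions was possible. Expected counts were rounded and tested between the libraries by an exact binomial test (scipy 1.17.1) against TMM-scaled library sizes (edgeR 4.0.16; factors 0.974 and 1.03), where both libraries summed to 10 counts or more. Folds had 0.5 counts added. The test was checked on simulated data that held counting error only, so the check does not cover further spread between real libraries. Clopper-Pearson intervals (exact, 95%) reflect counting error alone. GC content was computed for 45 genes, of whose transcripts 36 had the deposited length. All 46 genes are named. Isoforms are named for genes of at least 5 TPM whose coding share was under 50% in a library or whose leading transcript changed. Of the second list, the 4 highest, the 3 lowest and those under 1 TPM are named, except for 1 gene that is not reported here, and of the library differences up to 5 in each direction. Other genes named were chosen after their values were seen. The 46 genes, the lists and the tests were chosen with earlier results of these data known. Alternatives covered other thresholds, FPKM, counts per kilobase, other library scalings (DESeq2 1.42.0) and each library alone. Protein sequences were not used here.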

Additional observations from a re-analysis of the deposited data

How the results depend on the processing

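With 2 libraries of 1 group, no spread between cultures could be estimated, and the test between libraries cannot be repeated without a library. Depth limits genes such as Tipin and Rpa3, with 52 to 69 expected counts in each library. No paired analysis was possible because there is 1 group. At 100 TPM in place of 50, 6 genes were high. Of the genes called between the libraries, a fold of at least 2 left 8, of which 7 were higher in replicate 2, against 21.8% of all tested genes. With no fold minimum 38 were called, 27 higher in replicate 2 and 11 in replicate 1, against 73.5%. With DESeq2 size factors 19 were called, 16 higher in replicate 2 and 3 in replicate 1, against 41.3% of all tested genes. Of the 18 calls 17 were kept. With the fold taken from TPM 22 were called, 18 higher in replicate 2 and 4 in replicate 1, against 43.0% of all tested genes. In that setting 16 of the 18 calls were kept. The median log2 ratio over all tested genes was 0.0459 with TMM, 0.122 with total counts, 0.0319 with DESeq2 and -0.0842 by TPM. The log2 ratio of Pcna to Rfc1 was 3.34 by counts per kilobase of the longest coding transcript and 1.73 by undivided counts, and passed the criterion in both. Per kilobase of the longest coding transcript the ORC span was 19.9-fold, narrower than by TPM, and the MCM2-7 span was 19.5-fold, wider than by TPM. In single libraries the span ran from 10.8 to 70.1 in RFC, from 27.5 to 51.6 in polymerase alpha-primase, from 17.7 to 68.3 in RPA and from 6.74 to 15.5 in GINS. The rho of level with GC ran from 0.773 to 0.789 in single libraries. It was 0.680 with the GC of the longest coding transcript (0.333 over expressed genes) and, in an alternative chosen after seeing the data, 0.704 with counts per kilobase (0.322 over expressed genes). E2F words were in 9 promoters before the start only. On the gene strand only they were in 7 (18.9%), against 1.38% of all genes and 3.13% of expressed genes. The 2 pairs that had not passed on sign differ in direction between single libraries by that rule. Pola1 over Prim1 ran from -0.66 to 0.95 and Fen1 over Lig1 from -0.48 to 0.10. The 6 pairs that passed have 1 direction in both libraries because the rule asks for it, so single libraries are no further check of them. They kept their direction under each other alternative run.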

Other observations

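The second list of 43 replication genes is described here by role, with genes chosen for mention after their values were seen. Over all tested genes 24.3% were called higher in replicate 2 and 17.1% higher in replicate 1. Of the 7 genes for histone deposition at forks, all 7 were expressed. The exact binomial test between the libraries called 4 of them, each higher in replicate 2. These 4 were Chaf1a, at 35.1 TPM in replicate 1 and 78.7 in replicate 2, Chaf1b, at 47.8 and 66.2, Asf1b, at 50.7 and 312, and Nasp, at 2.98 and 11.7. CHAF1A and CHAF1B are subunits of the chromatin assembly factor that places histones on new DNA, and ASF1B and NASP are histone chaperones. The scaled counts of Asf1b were 2.26 times higher in replicate 2, less than its TPM. Of the 6 genes for nucleotide supply, 4 were called higher in replicate 2 (Rrm1, Rrm2, Tk1 and Tyms). Thymidine kinase Tk1 had 79.3 TPM in replicate 1 and 143 in replicate 2, and thymidylate synthase Tyms 3.69 and 8.89.

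Of the 11 genes for origin licensing and firing, 2 were called higher in replicate 2 (Topbp1 and Ccne2) and 4 higher in replicate 1 (Mcm9, Ticrr, Donson and Ccne1). The cyclins E1 and E2 thus differed in opposite directions, with 0.484 times the scaled counts in replicate 2 for Ccne1 and 1.63 times for Ccne2. Donson had 65.3 TPM in replicate 1 and 27.4 in replicate 2, and Ticrr, which encodes a factor needed to load CDC45, 37.4 and 22.5. Lrwd1, which encodes an ORC-associated protein, had 237 and 236 TPM. None of the 4 alternative clamp loader genes was called. These counts are descriptions of 2 libraries, and no difference between the roles was tested.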
